A study of Mus musculus with 2 samples.

Results

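Narrow Suz12 peaks at gene ends are the short stretches of chromatin, under 1100 bp wide, where Suz12 was called within 2.5 kb of either end of a protein-coding gene. They were chosen by 2 measured values in the authors' peak list, the width of each peak and its distance to the outer gene ends in RefSeq, mouse build GRCm38. There were 290 of them among 3373 peaks in all (8.60%), and among 2510 peaks at gene ends (11.6%, exact 95% interval 10.3 to 12.9). The remaining 2220 gene-end peaks, 1100 bp or wider, are called wider peaks here. Together the narrow peaks covered 279792 bp, which is 3.48% of the length under the whole list.

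The list comes from chromatin immunoprecipitation followed by sequencing of 1 wild-type E14 library, made with the rabbit antibody D39F6 against Suz12. E14 is a mouse embryonic stem cell line. The cells had been grown in serum and then differentiated for 72 h with 1 µM all-trans-retinoic acid. Leukemia inhibitory factor, a cytokine that keeps stem cells from differentiating, was left out of the medium. The series has 2 samples; the other, from Suz12 knockout cells at 0 h, was not analysed here, so no level without Suz12 stands beside these peaks. With 1 library there is no replicate error and no p-value. Shares carry exact 95% intervals (Clopper-Pearson); they reflect counting error alone and assume that neighbouring peaks and genes are independent. A low score from Suz12 in few of the cells and one from little Suz12 in each cell cannot be told apart in a bulk population.

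Suz12 belongs to the core of Polycomb Repressive Complex 2 (PRC2), an enzyme complex that methylates histone H3 on lysine 27, a mark of silenced genes. In embryonic stem cells PRC2 sits mostly at CpG islands, stretches rich in unmethylated CG dinucleotides that often lie at gene starts. Broad PRC2 domains are best known at genes for developmental regulators such as homeobox factors. Retinoic acid drives these cells toward neural and other lineages.

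To show the kind of DNA under a narrow peak, 8 promoters are printed, each the 250 bases before an annotated start, 5′ to 3′ along the gene, from RefSeq (GRCm38.p6), with every CG in capitals. A narrow peak covered the start and the whole promoter window at each. Htr1f, a serotonin receptor gene, Jhy, a gene of ciliary function, Bspry and Hoxd3, a Hox gene of the body axis, had the highest scores among such peaks. Qrfprl, a gene for a receptor-like membrane protein, and Cftr, which encodes a chloride channel, had the highest ratios of observed to expected CG, and Sgk1, a hormone-responsive kinase gene, and Tnfsf11, the gene of the osteoclast factor RANKL, the lowest.
Htr1f (chr16:65105785-65106034, minus strand): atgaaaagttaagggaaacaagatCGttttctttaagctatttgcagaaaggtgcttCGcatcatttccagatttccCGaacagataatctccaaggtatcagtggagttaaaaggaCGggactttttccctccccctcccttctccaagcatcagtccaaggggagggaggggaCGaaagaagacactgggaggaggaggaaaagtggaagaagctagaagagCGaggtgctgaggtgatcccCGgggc
Jhy (chr9:40964119-40964368, minus strand): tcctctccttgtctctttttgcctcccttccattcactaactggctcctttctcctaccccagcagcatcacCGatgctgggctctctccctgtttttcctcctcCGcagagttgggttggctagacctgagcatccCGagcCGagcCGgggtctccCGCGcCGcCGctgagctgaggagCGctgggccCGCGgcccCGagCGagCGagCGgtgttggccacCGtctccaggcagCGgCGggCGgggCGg
Bspry (chr4:62479812-62480061, plus strand): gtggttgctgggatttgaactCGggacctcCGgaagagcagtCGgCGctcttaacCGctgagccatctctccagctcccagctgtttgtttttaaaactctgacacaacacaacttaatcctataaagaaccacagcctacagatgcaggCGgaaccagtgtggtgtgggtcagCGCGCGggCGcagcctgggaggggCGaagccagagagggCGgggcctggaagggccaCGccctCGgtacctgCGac
Hoxd3 (chr2:74711743-74711992, plus strand): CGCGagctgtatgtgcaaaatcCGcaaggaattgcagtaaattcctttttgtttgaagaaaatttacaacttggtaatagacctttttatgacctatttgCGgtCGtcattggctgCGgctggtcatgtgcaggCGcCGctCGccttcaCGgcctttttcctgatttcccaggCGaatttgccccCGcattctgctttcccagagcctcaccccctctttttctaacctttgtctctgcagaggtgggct
Qrfprl (chr6:65381044-65381293, plus strand): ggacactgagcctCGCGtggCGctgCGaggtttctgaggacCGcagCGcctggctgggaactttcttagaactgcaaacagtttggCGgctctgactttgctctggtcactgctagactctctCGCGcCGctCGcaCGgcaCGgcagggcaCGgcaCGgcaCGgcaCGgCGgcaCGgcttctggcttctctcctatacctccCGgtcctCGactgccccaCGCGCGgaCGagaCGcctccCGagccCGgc
Cftr (chr6:18170437-18170686, plus strand): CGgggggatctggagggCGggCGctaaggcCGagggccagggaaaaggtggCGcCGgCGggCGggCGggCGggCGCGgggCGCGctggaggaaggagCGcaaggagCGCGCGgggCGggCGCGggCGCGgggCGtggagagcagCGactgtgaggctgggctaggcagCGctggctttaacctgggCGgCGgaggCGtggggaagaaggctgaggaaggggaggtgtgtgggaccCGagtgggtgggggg
Sgk1 (chr10:21881934-21882183, plus strand): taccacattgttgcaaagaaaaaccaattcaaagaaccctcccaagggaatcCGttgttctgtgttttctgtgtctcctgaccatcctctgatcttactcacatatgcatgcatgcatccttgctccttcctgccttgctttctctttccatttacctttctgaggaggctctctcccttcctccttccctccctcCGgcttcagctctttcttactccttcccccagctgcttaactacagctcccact
Tnfsf11 (chr14:78308044-78308293, minus strand): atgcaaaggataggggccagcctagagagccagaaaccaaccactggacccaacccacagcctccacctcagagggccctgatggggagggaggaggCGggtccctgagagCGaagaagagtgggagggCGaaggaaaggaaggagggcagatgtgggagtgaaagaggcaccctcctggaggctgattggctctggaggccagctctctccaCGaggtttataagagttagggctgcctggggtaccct
The CG count of these 250 bases ran from 28 and 30 at Qrfprl and Cftr down to 2 and 4 at Sgk1 and Tnfsf11. It was 7 at Htr1f, 21 at Jhy, 15 at Bspry and 12 at Hoxd3. So a narrow peak lay over a CG-dense start at Cftr and over a CG-poor one at Sgk1.

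By score, the narrow peaks were the weak end of the list. The score is the authors' own value for each peak, its scale is not stated in the file, and it is used here only to describe and rank peaks. Narrow peaks scored from 150.3 to 712 with a median of 190 (quartiles 169 and 229), and wider gene-end peaks had a median of 745. Of the 290, 169 (58.3%) scored under 200, 271 (93.4%) under 300 and 287 (99.0%) under the lower quartile of the wider peaks, 378. Wider peaks of such a low score existed too, since 109 of 2220 (4.91%) scored under the narrow peaks' median. Because width chose the peaks and score follows width in this list (Spearman's rho 0.90 across the 2510 gene-end peaks and 0.39 across the 290, a description), the low scores are a property of the choice.

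**Figure D1:**
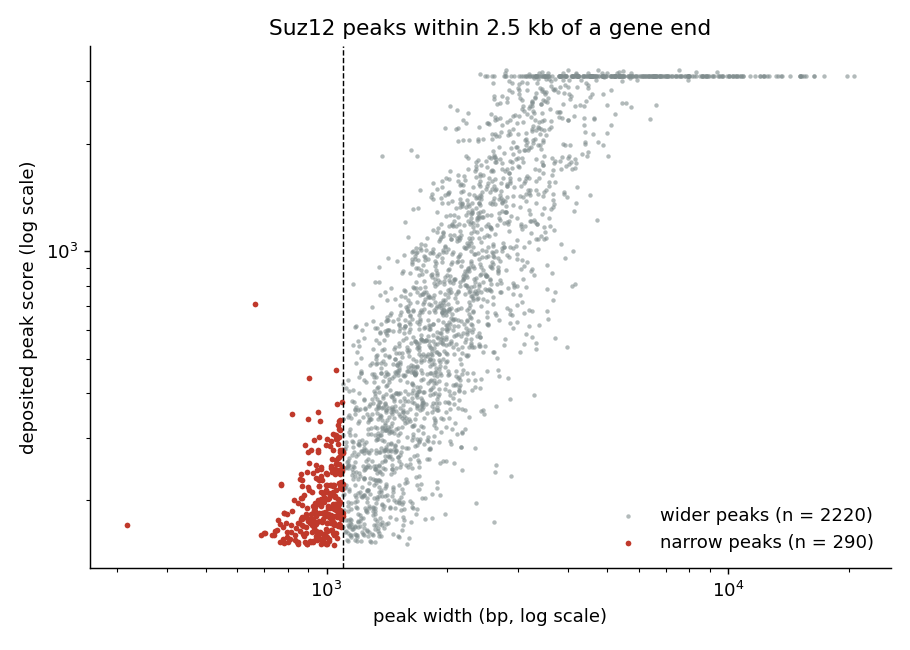
Deposited score against width for the 2510 Suz12 peaks within 2.5 kb of a gene end, both on log scales; each point is 1 peak, red for the 290 narrow ones, and the dashed line is the 1100 bp limit. The narrow peaks sit at the low end of both axes, apart from a single peak of 665 bp with score 712.

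The width limit cuts a continuous range. Narrow peaks were 318 to 1099 bp wide with a median of 979 (quartiles 903 and 1048), so most lay close to the limit. Just inside it were peaks at Cdc42ep3 and Fam174b (1099 bp, scores 184 and 274), Arhgap27 and Bcl3 (1098 bp, 181 and 272) and Ucp1 (1096 bp, 222). Just outside were Moxd1, Syt15, Fgf8 and Fam89a (1100 bp, scores 304, 168, 423 and 207) and Fam110c (1101 bp, 339). The narrowest was a peak of 318 bp with score 171, 1157 bp from the start of Fcgr3, an antibody receptor gene of immune cells. The next were 665 bp at Gm10499, 688 bp at Bhlhe40, 699 bp at Anks6 and 701 bp at Tmem266.

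The highest-scoring narrow peaks lay at genes of many kinds. The first, with score 712, lay on chromosome 17 from 36145430 to 36146094, within the limit of both Gm10499 and Gm8909, which are known by predicted symbols only. Sgcz, a sarcoglycan gene of muscle membranes, followed with 463 (chromosome 8, 38659998 to 38661055). Ebf1, a factor of the B cell lineage, had a narrow peak of score 441 over its start (chromosome 11, 44617934 to 44618835). Other high scores were at Sox9, a factor of cartilage and testis (377), Syndig1l (373), Htr1f (355), the kinase gene Map3k9 (339), Jhy (335), Bspry (334), Ccdc92b (334) and Hoxd3 (326). Of the transcription factor genes among these, Sox9 and Hoxd3 belong to the 7 lineage regulator families described below, and Ebf1 does not. Over all 308 genes with a narrow peak, 23 were of these families.

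Places further down the first 25 went to Ctu1, a tRNA-modifying enzyme gene (317), Papolb, a poly(A) polymerase gene of testis (316), Nipal4, a magnesium transporter gene (308), and Vamp5, a vesicle protein gene of muscle (306). They were followed by Gpr160, an orphan receptor gene (305), the testis factor Dmrt1 and the nuclear factor Nfib (302 each), Dnah11, a dynein gene of cilia (298), a further peak at Sox9 (297), and Dnm3, a dynamin gene (297). Tc2n (295) and Dcdc2c, whose peak was shared with Allc (293), came last among those named here. At the low end, 10 peaks scored 150.3 to 152.3. Their nearest genes were Gas2l2, Slc8a2, 4930444P10Rik, Mon1a, Frem3, Pcdhb5, Fbxl16, L3mbtl4, Ndst3 and Map3k5. Genes of several kinds thus stood at both ends of the score range.

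Narrow peaks lay close to the gene end. The rule used the distance from the edge of the peak, so what follows describes the peaks and tests nothing. Of the 290, 165 (56.9%, 51.0 to 62.7) covered the nearest end, and the 125 others began 10 to 2434 bp from it, with a median of 513 bp. The midpoint lay at a median of 428.5 bp from the nearest end (quartiles 232 and 854 bp, highest 2982 bp). Counted in steps, 25.9% of midpoints lay within 250 bp of the end, 32.4% between 250 and 500 bp, 20.0% between 500 and 1000 bp, 13.8% between 1000 and 2000 bp and 7.93% beyond. More narrow peaks lay in the second step than in the first.

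Wider peaks covered the nearest end more often (1600 of 2220, 72.1%, 70.2 to 73.9), as a longer peak can from a greater distance, yet their midpoints lay farther from it, at a median of 729 bp. From the narrowest class to the widest, the median distance was 428.5 bp under 1100 bp, 596.5 bp from 1100 to under 2000 bp, 830.5 bp from 2000 to under 5000 bp and 1486 bp at 5000 bp or more. A long peak that reaches past an end has its midpoint farther off by its length alone, so these medians set widths side by side and do not rank closeness. Narrow peaks were at a gene end in 290 of 424 cases (68.4%, 63.7 to 72.8), and peaks of 1100 bp or more in 2220 of 2949 (75.3%, 73.7 to 76.8). By midpoint alone the shares were 67.5% (62.8 to 71.9) and 69.4% (67.7 to 71.04), whose intervals overlap.

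**Figure D2:**
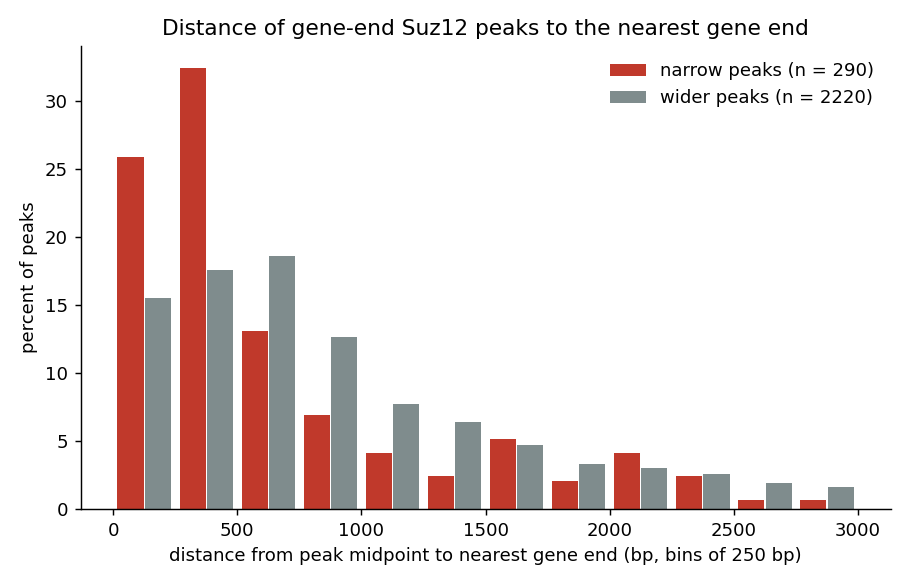
Distance from the peak midpoint to the nearest gene end, in bins of 250 bp, as the percent of the 290 narrow peaks (red) and of the 2220 wider peaks (grey) at gene ends. Narrow peaks reach 25.9% and 32.4% in the first 2 bins, against 15.5% and 17.6% of wider peaks.

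The farthest narrow peaks within the limit lay at Arhgap27 (2434 bp from the end to the edge of the peak), Ctu1 (2391 bp), Grik4, a glutamate receptor gene (2356 bp), Sox9 (2179 bp) and Skor1, a neuronal corepressor gene (2010 bp). Just beyond it, narrow peaks lay 2632 bp from Vopp1, 2655 bp from Ntn1, 2705 bp from Gata3, 2714 bp from Dlgap1 and 2743 bp from Gm40349. Their scores, 158 to 217, were within the range of the narrow peaks inside the limit.

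Most narrow peaks were at the start of the gene and not at its far end. The RefSeq gene table gives no strand, but a table of promoters gave it for 17274 of 21631 protein-coding genes (79.9%), and so told start from far end at 214 of the 290 peaks. The nearest end was the start at 187 of these 214 (87.4%, 82.2 to 91.5) and the far end at 27. Wider peaks were nearest to a start in 1364 of 1621 cases (84.1%, 82.3 to 85.9), and by class the share was 86.1% from 1100 to under 2000 bp, 82.8% from 2000 to under 5000 bp and 80.3% at 5000 bp or more. These intervals overlap that of the narrow peaks. Whether a peak lay in an exon, an intron or an untranslated region could not be read from these tables.

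At starts and far ends the narrow peaks were placed differently. At the start, 115 of 187 (61.5%, 54.1 to 68.5) covered it, and the midpoint was at a median of 389.5 bp. At the far end, 4 of 27 (14.8%, 4.19 to 33.7) covered it, and the median was 1632 bp. Wider peaks covered 77.8% of their starts and 38.5% of their far ends. The narrow peaks at far ends included short regulator genes, such as Nhlh1, a neuronal basic helix-loop-helix factor (5305 bp long, peak 1238 bp from the far end), Hoxd4 (7183 bp, 1230 bp), Foxa1, a pioneer factor of endoderm (7402 bp, 1093 bp), and Isl1, a homeobox factor of motor neurons and heart (11419 bp, 327 bp). Others of the 27 lay at Ctu1, Grik4, Skor1, Fbxl16, Mon1a and Slc8a2. Of these 27 peaks, 3 (11.1%, 2.35 to 29.2) also lay within 2.5 kb of an annotated start of a protein-coding gene, against 109 of 257 far-end peaks among the wider ones (42.4%, 36.3 to 48.7).

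Over a start, narrow peaks leaned into the gene. Of 134 narrow peaks that covered a start in the promoter table, 119 (88.8%, 82.2 to 93.6) had their midpoint downstream of it. The median offset was 199 bp into the gene (quartiles 96.3 and 327 bp), and offsets ran from 180 bp upstream (-180) to 508.5 bp downstream. The same side was seen for 84.2% of peaks of 1100 to under 2000 bp (81.0 to 87.0), 79.5% of those of 2000 to under 5000 bp (76.1 to 82.7) and 67.4% of those of 5000 bp or more (58.9 to 75.1). For the narrow class the interval does not overlap that of the widest class. The median offset was 281, 409 and 789 bp in these 3 classes.

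**Figure D3:**
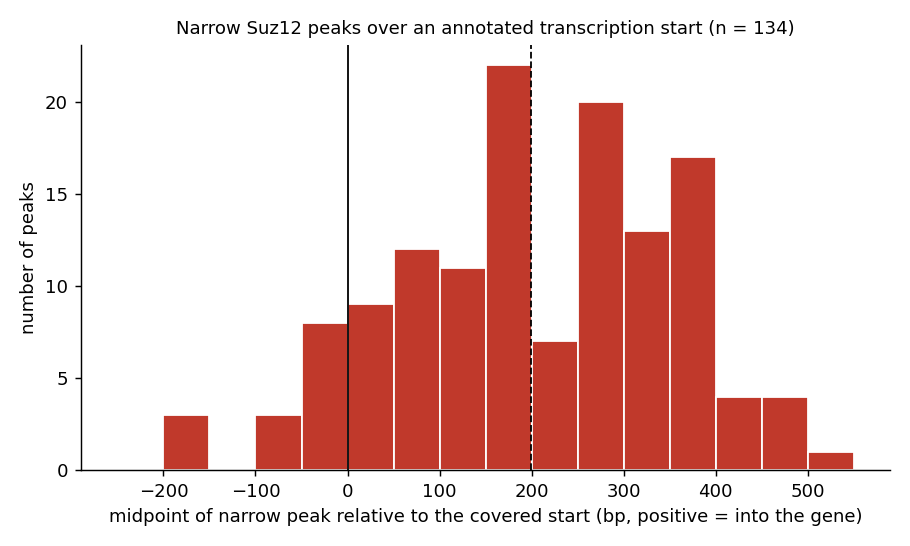
Midpoints of the 134 narrow peaks that cover an annotated start, in bins of 50 bp, relative to that start (solid line at 0; positive values lie inside the gene); the dashed line is the median of 199 bp. Downstream midpoints number 119, and the upstream ones reach no farther than 180 bp.

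Examples show this placement. The midpoint lay 172.5 bp into Htr1f, 203 bp into Bspry, 97 bp into Hoxd3 and 284.5 bp into Ebf1. It lay 275.5 bp into Des, the intermediate filament gene of muscle, 469.5 bp into Nes, the filament gene of neural progenitors, and 227.5 and 390.5 bp into the retinoid receptor genes Rxrg and Rarg. It lay upstream at Cftr (-157.5 bp) and at Slc34a2, a phosphate transporter gene (-180 bp). Among all 290 peaks, 249 (85.9%, 81.3 to 89.7) had the midpoint inside the gene, close to the 86.2% (84.7 to 87.6) of wider peaks.

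Counted by gene, 308 of 21631 protein-coding genes (1.42%) had a narrow peak within 2.5 kb of an end, and 10.6% had a wider one. At 57 of the 308 (18.5%, 14.3 to 23.3) a wider peak lay at an end as well. The other 251 had narrow peaks only, which is 1.16% of all genes and 9.88% (8.75 to 11.1) of the 2540 genes with any peak at an end (11.7% of all genes). A gene counted as narrow only may still hold a wider peak inside it, away from its ends. Genes with narrow peaks only were long, with a median of 38748 bp, against 23172 bp for genes with a wider peak and 16782 bp for genes without a peak. Few narrow peaks served more than 1 gene: 22 of 290 (7.59%, 4.81 to 11.3) lay at ends of several genes, against 13.1% (11.7 to 14.5) of wider peaks.

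Only 4 genes had 2 narrow peaks. At Ebf1, peaks of score 441 and 172 lay 554 bp apart, beside a wider peak of 3227 bp and score 1216. At Sox9, peaks of score 297 and 377 lay on either side of a peak of 1153 bp with score 172, which is past the width limit but lower in score than both. At Mpped1, peaks of 244 and 179 lay 219 bp apart near the start with no wider peak at the ends. Trim14 had a peak of 194 over an end and one of 156, 1711 bp from an end.

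The kinds of genes were described with 58 gene lists and families, of which 18 are written lists of 663 symbols and 40 are families matched by symbol. They hold 122 of the 308 genes with a narrow peak, and 186 are on none of them. Narrow peaks lay at genes of lineage regulators, of receptors and channels, of signalling enzymes and of cell adhesion, mostly 1 to 9 genes a family. Read against 1.42% of all genes, the share with a narrow peak was above it with its whole interval for basic helix-loop-helix factors, phosphatases, phosphodiesterases and cyclases, G-protein-coupled receptors, homeobox and Hox genes, forkhead genes and T-box genes, but several of these rest on 2 or 3 genes. These families also hold many wider peaks. The lower bounds for homeobox, forkhead and T-box genes, 1.426%, 1.429% and 1.458%, barely cleared the 1.424% of all genes. The intervals were not corrected for the 58 lists and families. With a width limit of 900 bp, 0 of 199 homeobox genes had a narrow peak, and 0 of 17 T-box genes had one that covered an end at the main limit.

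Among lineage regulators matched by symbol that had a narrow peak, 12 also had a wider one at an end and 11 did not. The 7 families of such factors, namely homeobox, Hox, forkhead, Sox, T-box and basic helix-loop-helix genes and a zinc finger family (Gata, Klf, Sp, Sall, Zic, Gli, Snai, Egr, Ikzf, Prdm, Osr and Ovol symbols), hold 461 genes. A narrow peak lay at 23 of them (4.99%, 3.19 to 7.39) and a wider one at 278 (60.3%). Of the 289 with any peak, 11 (3.81%, 1.92 to 6.71) had narrow peaks only, a lower share than the 9.88% of all genes with a peak and than the 11.4% (9.75 to 13.1) of genes on no list. Genes on no list had a narrow peak in 186 of 13745 cases (1.35%, 1.17 to 1.56). The 7 families miss other transcription factors with narrow peaks, such as Ebf1 and Dmrt1, which also had a wider peak, and Nfib, which did not.

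Among homeobox genes outside the Hox clusters, 7 of 199 had a narrow peak, and 5 of these had a wider one too. Isl1 (score 237) was among the 2 with narrow peaks only. At Irx3, a patterning factor, a narrow peak of 210 stood beside a wider one of 1829. At Evx2 one of 192 stood beside a wider one of 3100, the value at which the deposited scores pile up. In the Hox clusters 3 of 39 genes had one, all in the Hoxd cluster: Hoxd3 (326), Hoxd13 (273) and Hoxd4 (184), and of these Hoxd4 had narrow peaks only. Forkhead genes had 3 of 44, with Foxa1 (221) and Foxp2, a factor of brain development (197), beside wider peaks, and Foxa3, a liver factor (159), without. Of 17 T-box genes, Tbx5 of the heart (203) had a narrow peak only, and Tbx3 (178) a wider one as well. The zinc finger family held 1 of 78, at Prdm8 (252), and Sox9 was the single gene of 19 in the Sox family.

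Basic helix-loop-helix factors with a narrow peak had no wider one. A narrow peak lay at 6 of 65 genes (9.23%, 3.46 to 19.0), and no wider peak lay at an end of any of the 6, while 38 other genes of the family had a wider one. The highest were Hey1, a Notch target (287), Nhlh1 (254), Scx, a tendon factor (198), and Mesp2, a factor of somite formation (175). Atoh7, a retinal factor, and Bhlhe40 scored 165 and 160, and Atoh7 was picked out after its value was seen. The narrow peaks covered an end at Scx, Mesp2, Atoh7 and Bhlhe40, and lay 1095 and 1238 bp from it at Hey1 and Nhlh1. Of 44 genes of the family with a peak, 13.6% (5.17 to 27.4) had narrow peaks only, an interval that holds the 9.88% of all genes.

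Cell surface receptors and channels were described next. Of these families, the G-protein-coupled receptors alone had an interval wholly above the 1.42% of all genes. Of 214 genes for G-protein-coupled receptors of transmitters and peptides, 9 (4.21%, 1.94 to 7.83) had a narrow peak, 9 of these without a wider one at an end, beside 77 genes of the family with a wider peak. Of the genes matched by symbol, Htr1f (355), Gpr160 (305), Npy5r, a receptor for neuropeptide Y (240), and Gpr101 (203) led them. The other 5 scored 156 to 186, among them the dopamine receptor gene Drd2, named after its value was seen. The symbol pattern also took in orphan receptors such as Gpr160. It missed Npffr1, a neuropeptide receptor gene (221, no wider peak), also named after its value was seen. Potassium channel genes had 4 of 94, 2 of them with a wider peak at an end as well, such as Kcnk15 (203), while Kcnip4 (277) and Kcnh7 (153) had narrow peaks only. Transmitter-gated receptors had 2 of 69, Chrna5 of the nicotinic receptors (189) and Grik4 (164), and calcium and sodium channels 1 of 40, Scn8a (211). The pattern for these channels missed Nalcn, a sodium leak channel gene (173), which was named after its value was seen. Of 1503 olfactory, vomeronasal and taste receptor genes, 1 had a narrow peak, Olfr95 (202), and 1 a wider one.

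Transporter genes lay near the share of all genes. Of 375 solute carrier genes, 7 (1.87%, 0.754 to 3.81) had a narrow peak, led by Slc34a2 (274), Slc2a13, an inositol transporter gene (220), Slc18a3, which loads acetylcholine into vesicles (176), and Slc15a4 (171). The 6 other than Slc18a3 had narrow peaks only, 9.68% of the family's 62 genes with a peak.

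Immune signalling genes were the family with the highest share of narrow peaks only among those with at least 3 such genes. Interleukins, chemokines, tumour necrosis factor ligands and their receptors had few peaks of any kind, 16 of 205 genes, and 5 of the 16 (31.3%, 11.02 to 58.7) had narrow peaks only. They were Tnfsf11 (263), the receptor genes Il15ra (185), Il20ra (178) and Ccr10 (173), and Il17rb (162), the last named after its value was seen. The peaks at Ccr10 and Il17rb each lay within the limit of another gene too, and at Il17rb the nearest end was that other gene's. The lower bound of 11.02% lay little above the 9.88% of all genes with a peak. Measured on all 205 genes, the 5 make 2.44% (0.797 to 5.60), an interval that holds the 1.42% of all genes. With a width limit of 900 bp, 1 of the 205 had a narrow peak. The symbol pattern missed Ltb, a ligand gene of the tumour necrosis factor family (177, no wider peak), named after its value was seen. Genes with a CD symbol had 2 of 88, Cd34 of blood and vessel progenitors (277) and Cd302 (207).

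Signalling enzymes had narrow peaks on small counts. Phosphodiesterase and cyclase genes, which set the level of cyclic nucleotides, had a narrow peak at 4 of 45 (8.89%, 2.48 to 21.2): Pde1c (238), Pde9a (196), Adcy6 (159) and Pde5a (154). Dual-specificity and tyrosine phosphatases had 4 of 62 (6.45%, 1.79 to 15.7): Ptprz1 of glia (195), Dusp4 (168), Ptprd (166) and Ptprn (158). None of these 8 genes had a wider peak at an end. Of the genes of each family with a peak, 23.5% (6.81 to 49.9) and 25% (7.27 to 52.4) had narrow peaks only, intervals that hold 9.88%. Small GTPases had 2 of 121, Rerg (247) and Rab31 (167).

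Adhesion, matrix and motor genes had narrow peaks at low counts. Cadherins and protocadherins had 4 of 101, none with a wider peak: Pcdhgb4 (272), Pcdha3 (174), Cdh7 (161) and Pcdhb5 (151). Metalloproteinase genes of the Adam, Adamts and Mmp families had 4 of 85, Mmp28 (252), Mmp24 (219), Adamts5 (198) and Adamts17 (188), and only Adamts5 had a wider peak too. Dynein, kinesin, tubulin and myosin genes had 4 of 133, Dnah11 (298), Myo3a (255), Myo16 (243) and Dync1i1 (159). The synaptic vesicle family, whose symbol pattern also took in Rab31, had 4 of 86 with Vamp5 (306), Rims4 (203) and Syt13 (153). Fbx, tripartite motif and ubiquitin ligase genes had 4 of 321 (1.25%, 0.340 to 3.16), among them Rnf157 (228), Trim14 (194) and Fbxl16 (151).

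**Figure D4:**
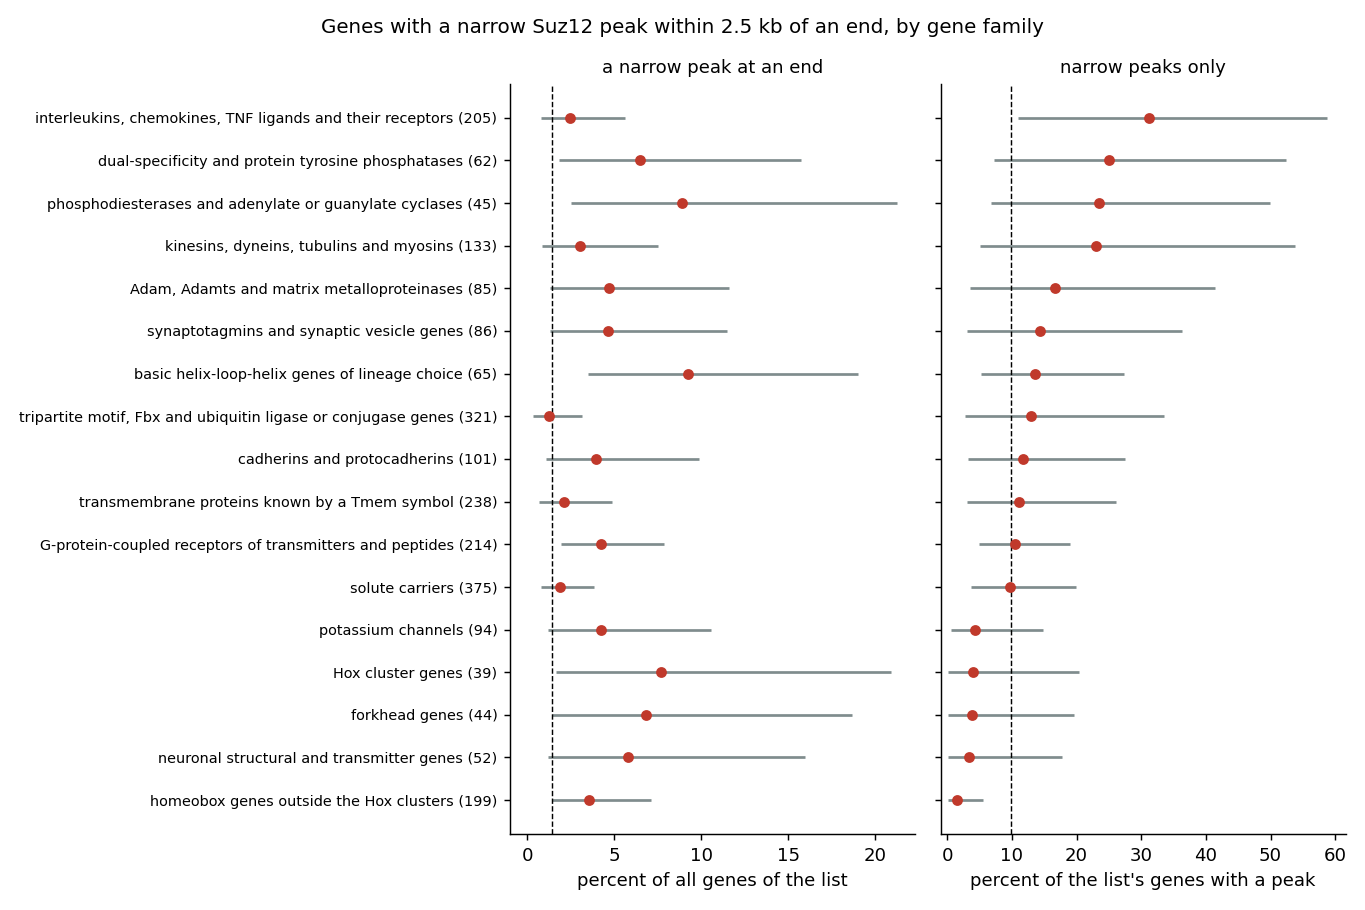
Left, the percent of each family's or list's genes with a narrow peak within 2.5 kb of an end; right, the percent with narrow peaks only among its genes with any peak; points are shares, bars exact 95% intervals, numbers in brackets the genes of the family, and dashed lines the shares over all genes (1.42% and 9.88%). The 17 families and lists shown have at least 3 such genes each; on the right homeobox genes lie lowest (1.56%) and immune signalling genes highest (31.3%), and of the intervals the one for immune signalling genes lies above the line and the one for homeobox genes below it.

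Genes of signalling ligands and their receptors had 0 to 2 narrow peaks a family, counts whose intervals hold the 1.42% of all genes, and many had wider peaks. No narrow peak lay at 56 genes for Wnt ligands, receptors and antagonists, which allows a share of up to 6.4%, while 30 had a wider one. With a width limit of 1300 bp, 5 of the 56 (8.93%, 2.96 to 19.6) had a narrow one. Fst, an activin antagonist (201), was the single gene of 72 of the TGF-beta families. In the FGF, hedgehog and Notch family, whose pattern also took in Hhipl1 (190), Fgfr4, a fibroblast growth factor receptor gene (183), had narrow peaks only. Ephrin, semaphorin, netrin and slit genes had 2 of 79, Slitrk5 and Ntng2 (159 each), both with a wider peak at an end as well. The symbol pattern took in Slitrk5, which is neither a slit nor a slit receptor gene.

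Lists tied to the treatment, to stem cell identity and to differentiated cells had 0 to 3 genes with a narrow peak, and their intervals hold the 1.42% of all genes. Of 40 retinoic acid pathway genes, 2 had one (5.00%, 0.611 to 16.9), the receptor genes Rxrg (202) and Rarg (174), and neither had a wider one. Of 44 pluripotency genes, Tbx3 alone had one (2.27%, 0.0575 to 12.02), beside 19 with a wider peak, and of 36 Polycomb subunit genes none had one and 5 had a wider peak. Neuronal structural and transmitter genes had 3 of 52 (5.77%, 1.21 to 15.9), Gad2, which makes the transmitter GABA (255), the calcium-binding protein gene Pvalb (177) and Slc18a3 (176). Single genes were Nes of 20 glial genes (173), Des of 36 muscle genes (198), Cd34 of 39 immune and blood genes, Ccnd1 of 34 cell cycle genes (161) and Dmrt1 of 38 germline genes. Fosb (218) and Sgk1 (216) were the 2 of 41 immediate-early genes.

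Families and lists for ribosomes, respiration, splicing, housekeeping, the proteasome and translation held 2 genes with a narrow peak. No narrow peak lay at 101 ribosomal protein genes, 186 mitochondrial ribosome and respiratory chain genes, 161 splicing and polymerase genes or 48 housekeeping genes, and wider peaks there numbered 3, 0, 5 and 0. These counts of 0 allow shares of up to 3.59%, 1.96%, 2.27% and 7.40%, so none is below the 1.42% of all genes beyond counting error. Among 130 proteasome, chaperonin and translation factor genes there were 2 (1.54%, 0.187 to 5.45), Eif5a2 (183) and Psmb8, an immunoproteasome subunit gene (164). Collagen, trophoblast, liver and gut, imprinted, primitive endoderm, fibroblast and histone modifier genes had none, on 20 to 44 genes a list. Genes known only by clone or predicted symbols had 8 of 1564 (0.512%, 0.221 to 1.00), below the 1.42% of all genes. The pattern for histone genes matched 0 symbols of the table and says nothing.

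Narrow peaks were found in 2 settings, alone and beside another peak. Another peak lay within 3 kb of 40 of the 290 (13.8%, 10.0 to 18.3) and none within 3 kb of the other 250. For 37 of the 40 the nearest other peak was a wider one; over the 40, it was 896 to 15422 bp wide (median 1981), with a median score of 607, and lay 1 to 2934 bp away (median 322 bp). The median score was 195 beside another peak and 190 alone, and the median width 978 and 979.5 bp.

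Place and gene type differed between these settings. Peaks beside another covered the nearest end in 11 of 40 cases (27.5%, 14.6 to 43.9), those alone in 154 of 250 (61.6%, 55.3 to 67.7), and the median distance of the midpoint was 1147 and 388 bp. The midpoint was inside the gene in 47.5% (31.5 to 63.9) of the first and 92.0% (87.9 to 95.05) of the second. The gene had a wider peak at an end in 38 of 40 cases and in 19 of 250. The split largely sets this contrast in advance, because for 37 of the 40 the neighbour was itself a wider peak. The contrasts of place are not free of the split either, since an end covered by the neighbour cannot also be covered by the narrow peak. How many of the 40 this concerns was not counted, so the differences of place are a description only. Genes of the 7 lineage regulator families were nearest or within the limit at 12 of 40 (30.0%, 16.6 to 46.5) and at 12 of 250 (4.80%, 2.504 to 8.23). These intervals do not overlap, and 2 of the first 12 lay at Sox9. Wider peaks lay at an end of 60.3% of the genes of these families and of 10.6% of all genes. The split by a neighbouring peak and the gene type are therefore not independent. Median gene length was 22781 bp beside another peak and 41648 bp alone.

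The flanking kind is seen at Hoxd13, whose narrow peak (chromosome 2, 74666059 to 74666956) lay 83 bp from a peak of 6441 bp, and at Evx2 next to it, 525 bp from one of 7970 bp. At Skor1 a narrow peak of score 181 lay 120 bp from a peak of 15422 bp. Those at Prox1, a factor of lymph vessels and liver (180), Irx3 and Dmrt1 lay 337, 285 and 12 bp from peaks of 5888, 2999 and 7146 bp. Gad2, with the myosin gene Myo3a at the same peak, lay 378 bp from a peak of 4533 bp, and Fst 139 bp from one of 3887 bp. The neurotrophin gene Bdnf (163) lay 321 bp from a peak of 2293 bp. Prox1 and Bdnf were named after their values were seen. In these cases the wider neighbour scored from 626 to 3100, and the split between peaks is the authors' peak caller's.

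Peaks that stood alone could be far from any other. The nearest other peak was 2512547 bp away at Htr1f, 2330443 bp at Dcdc2c, 1784400 bp at Cd34 and 1537565 bp at Kcnip4. Over all 290 the median gap was 183201 bp, against 110224 bp for wider peaks. The share standing alone was 86.2% (81.7 to 90.0) for narrow peaks and 88.9% (86.8 to 90.7) for peaks of 1100 to under 2000 bp, with overlapping intervals, and 55.7% (48.4 to 62.9) for peaks of 5000 bp or more. An end of a long non-coding RNA gene lay within 2.5 kb of 55 narrow peaks (19.0%, 14.6 to 24.0) and of 24.7% (23.0 to 26.6) of wider peaks. By chromosome the count of narrow peaks ran from 6 on chromosomes 16 and X to 26 on chromosomes 1 and 2.

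The promoters under narrow peaks were rich in CG. Narrow gene-end peaks overlapped 157 promoter windows of 145 genes, each window 250 bases before to 50 after a start. The ratio of observed to expected CG in these windows had a median of 0.695 (quartiles 0.479 and 0.835), with a GC content of 63.7%. Windows without any peak, 19315 in number, had a median of 0.541 (quartiles 0.214 and 0.824). The ratio reached 0.6, a common limit for CpG islands, in 100 of 157 windows (63.7%, 55.7 to 71.2), in 46.1% (45.4 to 46.8) of windows without a peak and in 48.1% of all 21045 windows.

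Set by the widest peak over a window, the median ratio was 0.695 under 1100 bp (175 windows, which also include narrow peaks outside the 290), 0.720 from 1100 to under 2000 bp, 0.748 from 2000 to under 5000 bp and 0.743 at 5000 bp or more. The share at 0.6 or more was 65.1% (57.6 to 72.2), 69.3% (65.7 to 72.7), 73.9% (70.5 to 77.1) and 74.7% (67.3 to 81.2), and the interval of the narrow class overlaps those of the 3 others. Where a narrow peak covered the whole window, 61 of 81 windows (75.3%, 64.5 to 84.2) reached 0.6. The sequence under the peaks beyond these windows was not used here.

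**Figure D5:**
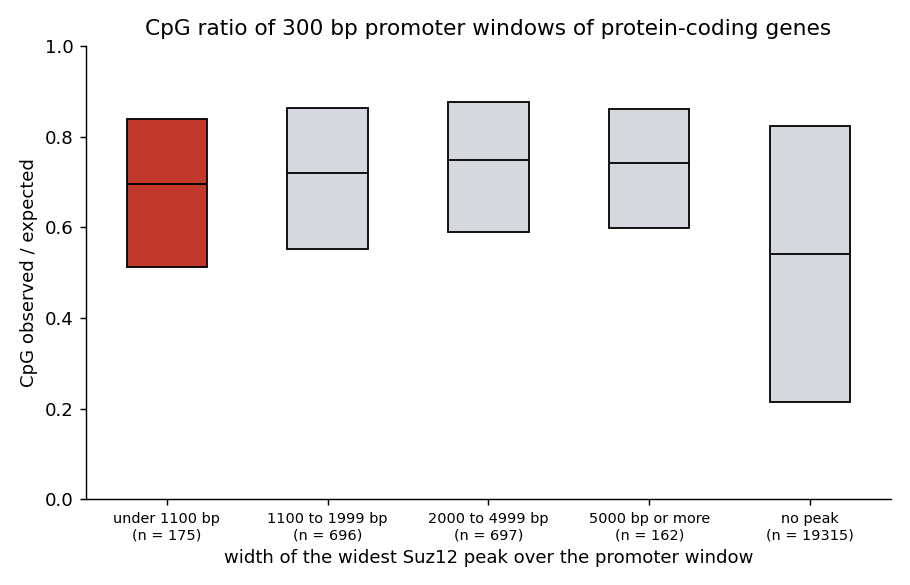
Ratio of observed to expected CG in 300 bp promoter windows of protein-coding genes by the width of the widest Suz12 peak over the window; boxes run from the lower to the upper quartile and the line is the median. Windows under narrow peaks (red, median 0.695) lie near those under wider peaks (0.720 to 0.748) and above windows without a peak (0.541).

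Short motifs were searched on both strands of the same windows. The GC box GGGCGG, which itself holds a CG, was in 106 of 157 windows under narrow peaks (67.5%, 59.6 to 74.8) and in 46.7% of all windows. The TATA box TATAAA was in 13 (8.28%, 4.48 to 13.7) against 12.7% of all, and the CCAAT box CCAAT in 43 (27.4%, 20.6 to 35.1) against 38.5%. The E-box CACGTG, which also holds a CG, was in 6.37% (3.10 to 11.4), an interval that holds the 7.91% of all windows. The ETS core CCGGAAG, which holds a CG too, was in 6.37% (3.10 to 11.4) against 11.7%. Windows under peaks of 1100 to under 2000 bp had the GC box in 72.0%, the ETS core in 4.60% and the CCAAT box in 24.6%. For 2000 to under 5000 bp these shares were 69.2%, 3.44% and 32.1%. For 5000 bp or more they were 60.5%, 2.47% and 43.8% (36.05 to 51.83). That last interval, of the CCAAT box, does not overlap the one under narrow peaks. The palindromic core motif of NRF1 was in 0 of 157 against 1.35%. A direct repeat of the retinoic acid receptor half-site AGGTCA with a spacer of 5 bases was in 0 of 157 windows and in 1 of all 21045. In the printed promoters, TATAAA lies in those of Bspry and Tnfsf11, CCAAT in those of Hoxd3, Sgk1 and Tnfsf11, and GGGCGG in those of Jhy, Bspry and Cftr.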

How the data were processed

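The assay was Suz12 chromatin immunoprecipitation with sequencing, and 1 library (wild-type E14 cells, 72 h) of the 2 in the series was analysed. Per the submitters' processing notes, the tools include Bowtie and MACS, and the mouse build is GRCm38 (mm10). Not given in the sources used here are versions, parameters, the control and any pooling. The list the authors deposited gives the start, end and score of each peak. The authors state no scale for the score; by the convention of MACS it is a scaled negative logarithm of a p-value. Reads are not in the list, which leaves the sequencing depth unknown, and signal too weak to be called would not show.

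Peaks were placed on 21631 protein-coding genes of RefSeq (GRCm38.p6). A narrow peak is under 1100 bp and within 2.5 kb, edge to gene end. Strand came from the RefSeq promoter table of the same build. Observed to expected CG is the CG count times the window length over the product of the C and G counts. Python 3.11.15, pandas 2.3.3, NumPy 2.4.6, SciPy 1.17.1 and Matplotlib 3.10.9 were used, and the scripts' counts were tested on simulated peaks with known answers.

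The peaks, gene lists and families were chosen with earlier results of these data known. Families were matched by symbol patterns, which can miss genes of a kind and take in others, so family counts are those of the matched symbols. Named genes are the nearest genes of the 25 highest-scoring and 10 lowest-scoring narrow peaks, of the 5 narrowest, of the 5 just inside and 5 just outside the width limit and of the 5 farthest from an end, up to 4 genes of each list by falling score, and genes with 2 or more narrow peaks. Some genes and 1 family that this rule names are not reported here. Other names are said to have been picked after their values were seen. Alternatives were a width limit of 900 or 1300 bp, a distance of 1 or 5 kb, peaks that cover the end, a score of at least double the lowest (300.6), and a gap of 1 or 10 kb.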

Additional observations from a re-analysis of the deposited data

How the results depend on the processing

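Of 101 alternative values of the main results, 66 remained inside the interval of the main value (for counts, inside a factor of 1.5) and 35 moved. Of 512 further values, those of single lists, 414 stayed and 98 moved; on such small counts this says little about stability. The counts follow the limits. A width limit of 900 bp left 71 narrow peaks at 74 genes, 2.83% of gene-end peaks, of which 50.7% covered the end, and 1.52% of lineage regulator genes had one. A limit of 1300 bp gave 508 peaks at 538 genes (20.2% of gene-end peaks). Within 1 kb, 57.8% of narrow peaks were at a gene end, 67.35% of these covered it, the median midpoint distance was 373 bp, 93.3% of known ends were starts, 10.55% of genes also had a wider peak and 8.98% of peaks had another within 3 kb. Within 5 kb, 74.8% of narrow peaks were at a gene end.

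Peaks that cover the end numbered 165 at 167 genes, which is 9.35% of gene-end peaks and 38.9% of narrow peaks. By construction 100% covered the end, and the median distance was 269 bp. Of known ends 96.6% were starts, 2.99% of genes also had a wider peak, 6.67% of peaks had another within 3 kb, and 2.17% of lineage regulator genes had one. With a score of at least double the lowest, 19 peaks at 20 genes remained in the set, 1.02% of gene-end peaks and 57.6% of narrow peaks. There 91.7% of known ends were starts, the median CG ratio was 0.762 and 0.434% of lineage regulator genes had one. Joining peaks within 3 kb first, a setting added after seeing the data, left 7.46% of genes with a wider peak as well and 2.60% of lineage regulator genes with a narrow one. A gap of 10 kb gave another peak beside 19.3% of narrow peaks. The causes of these shifts were not tested beyond the change of limit itself.

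No paired analysis was possible because 1 library alone was analysed and the 2 samples share a single replicate number.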
